A study of Homo sapiens with 6 samples.

Results

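The unfolded protein and integrated stress response was examined as a module of 40 genes in the human melanoma cell line A2058 after silencing of CT16, a cancer-testis antigen encoded by PAGE5. The members were taken by gene symbol, and for each gene the probe with the highest mean signal over the 6 arrays was used. All 40 genes had a probe on the array, of 16225 genes with a probe in all. A gene was counted as measured where its signal exceeded that of the negative control beads, at a detection p-value under 0.05, on at least 3 arrays. Of the members 35 were measured, of 8909 measured genes in all. The members fall into 14 genes of the ATF4 branch (13 measured), 14 chaperones and folding enzymes of the endoplasmic reticulum (ER; 13 measured), 6 genes of ER-associated degradation (6 measured) and 6 sensors and other regulators (3 measured).
The study asked which genes respond to CT16 silencing. Total RNA was taken after 48 h from 3 separate cultures that received CT16 siRNA and 3 that received control siRNA, all of A2058 cells, and was hybridized on Illumina Sentrix Human-6 arrays, 1 sample per array. The methods name the silencing reagent as CT16 siRNA1, so that a single siRNA in a single cell line stands for the silencing of CT16. No overexpression arrays were analysed here.

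The unfolded protein response is the set of signals by which a cell answers the build-up of unfolded protein in the ER. Its sensors are PERK (encoded by EIF2AK3), IRE1 (ERN1) and ATF6. PERK phosphorylates the translation factor eIF2, which lowers protein synthesis as a whole but raises the translation of ATF4. Other eIF2 kinases, which sense amino acid shortage, heme shortage or viral RNA, also lead to ATF4, and this shared arm is called the integrated stress response. ATF4 induces genes of amino acid synthesis and transport and the stress factors DDIT3 and TRIB3, while ATF6 and the spliced form of XBP1 induce ER chaperones and the degradation machinery. ATF4 itself is controlled mainly by translation, and XBP1 and ATF6 are activated by splicing and by cleavage, so the transcript level of these 3 genes does not measure the activity of their proteins.

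Promoter elements are known for each branch, and the promoter sequences of 5 members whose values are described below are shown here. The 250 bases before the transcription start were taken from RefSeq (GRCh38.p14), in the first window listed for each gene, and 37 of the 40 members had one. They are written from 5′ to 3′ on the strand of the gene, with motif matches in capitals. DDIT4 (chr10:72273674-72273923, plus strand) and TRIB3 (chr20:381045-381294, plus strand) are the members called by the rank product, ASNS (chr7:97872409-97872658, minus strand) carries the site of the ATF4 branch, HSPA5 (chr9:125241344-125241593, minus strand) the ER stress element of the chaperones, and HERPUD1 (chr16:56931892-56932141, plus strand) an element of each branch.
DDIT4: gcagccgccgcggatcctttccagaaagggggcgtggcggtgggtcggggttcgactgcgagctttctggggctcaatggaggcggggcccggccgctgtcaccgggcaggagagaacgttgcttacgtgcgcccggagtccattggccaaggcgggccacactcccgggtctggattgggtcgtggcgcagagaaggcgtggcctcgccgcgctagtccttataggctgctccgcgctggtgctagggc
TRIB3: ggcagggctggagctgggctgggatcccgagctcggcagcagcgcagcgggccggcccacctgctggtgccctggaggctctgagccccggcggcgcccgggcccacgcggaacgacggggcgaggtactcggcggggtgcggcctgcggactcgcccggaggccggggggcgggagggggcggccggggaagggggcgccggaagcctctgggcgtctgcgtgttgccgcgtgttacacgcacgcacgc
ASNS: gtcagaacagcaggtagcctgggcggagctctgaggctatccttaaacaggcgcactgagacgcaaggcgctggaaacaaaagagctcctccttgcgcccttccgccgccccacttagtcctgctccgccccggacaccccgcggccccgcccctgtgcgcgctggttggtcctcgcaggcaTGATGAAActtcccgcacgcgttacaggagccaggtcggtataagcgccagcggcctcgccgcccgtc
HSPA5: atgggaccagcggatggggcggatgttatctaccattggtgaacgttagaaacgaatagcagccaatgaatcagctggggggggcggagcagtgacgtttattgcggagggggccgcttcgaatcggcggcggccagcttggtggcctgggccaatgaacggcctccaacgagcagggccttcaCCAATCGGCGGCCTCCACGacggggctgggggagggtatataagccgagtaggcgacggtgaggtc
HERPUD1: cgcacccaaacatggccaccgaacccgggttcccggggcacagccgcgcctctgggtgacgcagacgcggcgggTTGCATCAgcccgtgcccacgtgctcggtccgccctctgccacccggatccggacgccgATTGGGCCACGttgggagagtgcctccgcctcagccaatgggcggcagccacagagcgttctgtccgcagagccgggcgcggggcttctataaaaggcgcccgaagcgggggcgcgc
The search covered both strands and 4 motifs. The C/EBP-ATF composite site (TGATGNAA), to which ATF4 dimers bind, was found in 3 of 13 windows of the ATF4 branch (ASNS, ATF3 and CHAC1), in 0 of 13 chaperone windows and in 3.19% of all 27305 windows. The ER stress element (CCAAT and CCACG with 9 bases between them), bound by ATF6 with NF-Y, was found in 4 of 13 chaperone windows (CALR, CANX, HSP90B1 and HSPA5), in XBP1, and in 0.0806% of all windows. The ER stress element II (ATTGG and CCACG with 1 base between them) was found in HYOU1, SDF2L1 and HERPUD1 and in 0.0513% of all windows. The core of the unfolded protein response element (TGACGTG) was found in HYOU1 alone among the members, where it overlaps an element II, and in 1.71% of all windows. HERPUD1 and PPP1R15B also held the composite site. None of these 4 motifs was found in the DDIT4 window or in the 3 windows listed for TRIB3, which says only that these letters are not there. Of the 2 windows listed for ASNS, only the 1 shown here held any of the motifs. A match is a description of the sequence and was not tested for binding.

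The silenced gene could not be used to check the arrays, since PAGE5 was not well above background on the 6 arrays, with detection p-values from 0.178 to 0.815. The paper describes A2058 as CT16 positive and reports, from measurements other than these arrays, that its siRNAs lowered CT16 mRNA in these cells. The melanocytic origin of the cells was visible in PMEL, SOX10, TYR and MITF, which were above background on all 6 arrays. Of the 8 listed markers 6 were measured, but S100B and TYRP1 were near background and above it on 4 and 3 arrays only. MLANA was not well above background, and DCT had no probe in the annotation. Markers of keratinocytes, fibroblasts, leukocytes and endothelium were measured in 5 of 16 cases (KRT10, LUM, DCN, CD68 and PECAM1). The summed signal of the fibroblast markers was 1130 to 1324 in the controls and 1189 to 2084 with CT16 siRNA, and that of the melanocytic markers 8825 to 10190 and 7582 to 9199. The number of probes above background was 11311, 12016 and 12561 in control siRNA replicates 1, 2 and 3. It was 13110, 12895 and 12948 in CT16 siRNA replicates 1, 2 and 3. Each CT16 siRNA array thus had more such probes than each control array, and the bearing of this on the differences was not tested. The first principal component held 71.8% of the variance and did not separate the groups. CT16 siRNA replicate 1 stood apart on it with a score of 37.5, while the other arrays lay between -21.1 (control siRNA replicate 2) and 9.03 (CT16 siRNA replicate 2), with CT16 siRNA replicate 3 at -16.5.

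Few of the stress response genes were called as different between CT16 siRNA and control siRNA. DDIT4 rose and TRIB3 fell by the rank product, and the other 33 measured members were not called. The median log2 difference of the 35 measured members, CT16 siRNA minus control siRNA, was -0.03, beside 0.00 over all 12082 probes above background. The differences ran from -0.65 to 0.60, and 16 were positive and 19 negative. Their lower and upper quartiles were -0.23 and 0.15, beside -0.13 and 0.13 over all probes above background.
The rank product, the test of the study's methods, ranked the 9 pairwise log2 ratios of all 47289 probes. At a false discovery rate (FDR) under 0.05 it called 1 member higher and 1 lower, beside 0.811% of the probes above background called higher and 0.993% called lower (0.207% and 0.254% of all probes ranked). By limma 0 members passed an adjusted p under 0.05, beside 0% of the 12082 probes, and the smallest adjusted p of a member was 0.222. An unadjusted limma p under 0.05 was found for 9.57% of all probes. Of the members, 1 was higher and 4 were lower at that level, beside 4.39% and 5.17% of all probes. The groups did not overlap in 4 members that were higher with CT16 siRNA (DDIT4, DDIT3, P4HB and DNAJB9) and in 8 that were lower (TRIB3, SHMT2, ASNS, CALR, HSPA5, MANF, DERL1 and ATF6). Such a lack of overlap was found in 7.39% (higher) and 8.95% (lower) of all probes above background. An exact permutation test of 3 arrays against 3 cannot give a p under 0.1, and with 3 arrays per group precision is limited throughout.

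**Figure D1:**
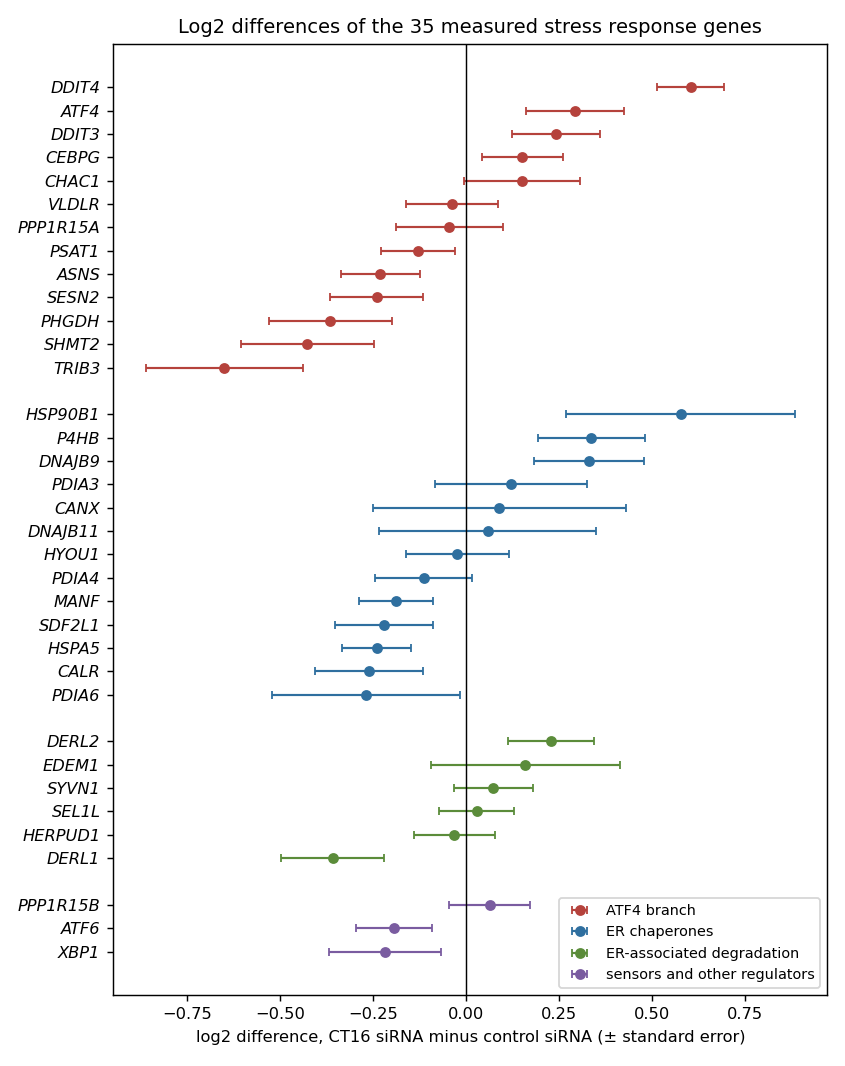
Log2 difference (CT16 siRNA minus control siRNA, n = 3 arrays per group) of the 35 measured stress response genes, by branch, with bars of 1 standard error from limma. The differences lie on both sides of 0 in every branch, from -0.65 for TRIB3 to 0.60 for DDIT4.

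DDIT4, also called REDD1, encodes an inhibitor of mTORC1 signaling and is induced by several stresses, among them ER stress. Its log2 signal was 10.94, 11.06 and 11.03 in control siRNA replicates 1, 2 and 3 and 11.60, 11.64 and 11.61 in CT16 siRNA replicates 1, 2 and 3. Each CT16 siRNA array was above each control array, and the 3 CT16 siRNA arrays lay closer together (SD 0.02) than the controls (SD 0.06). The difference was 0.60 on the log2 scale (standard error 0.09, n = 3 per group), or 1.52-fold, with a 95% interval from 0.39 to 0.81. Its rank product FDR was 0.020, and its limma adjusted p was 0.222.
The size of the DDIT4 difference was between 0.57 and 0.63 when any single array was left out, but its rank product call was not kept in each case. The FDR was 0.0948, 0.753 and 0.114 without CT16 siRNA replicate 1, 2 and 3, where the rank product called 15, 4 and 63 probes higher in all, against 98 with all arrays. Without a control array it was 0.0220 at most. After neqc background correction it was 0.350 and with only probes above background ranked 0.119, and with a strict filter (detection p-value under 0.01 on all 6 arrays) 0.169. Without CT16 siRNA replicate 3, DDIT4 was among 195 probes that passed by limma (adjusted p = 0.0475).

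TRIB3 encodes a pseudokinase that is induced by ATF4 and DDIT3 and in turn binds and restrains ATF4. Its log2 signal was 11.27, 11.41 and 11.13 in the control arrays and 10.12, 10.81 and 10.93 in CT16 siRNA replicates 1, 2 and 3. The groups did not overlap, and CT16 siRNA replicate 1 was far below the rest. The difference was -0.65 (standard error 0.21, n = 3 per group), or 1.57-fold lower, with a 95% interval from -1.14 to -0.16. The rank product FDR was 0.010 and the limma adjusted p 0.481. Without CT16 siRNA replicate 1 the difference was -0.40 (FDR 0.0803). The call was kept without CT16 siRNA replicate 2 (difference -0.74, FDR 0.0097) and without replicate 3 (difference -0.81, FDR 0.0014). The rank product then called 62 and 500 probes lower in all. Without control siRNA replicate 1, 2 and 3 the FDR was 0.187, 0.345 and 0.130, where the rank product called 17, 20 and 15 probes lower, against 120 with all arrays. The FDR was 0.510 after neqc background correction and 0.0696 with a median shift, and it was 0.0557 with only probes above background ranked and 0.106 with the strict filter.

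**Figure D2:**
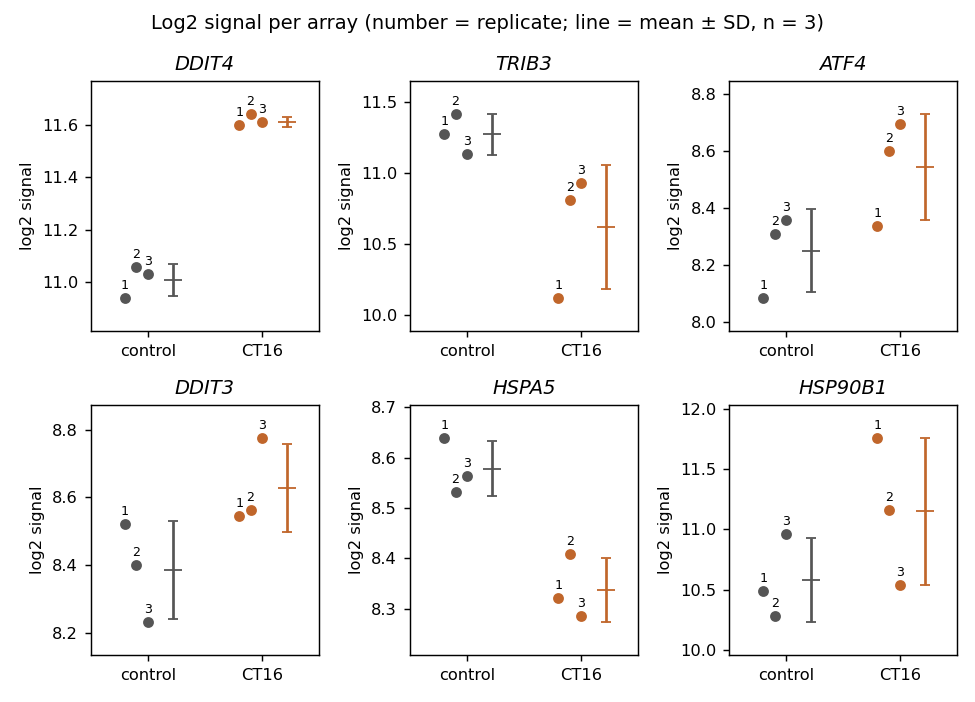
Log2 signal per array for 6 stress response genes in control siRNA and CT16 siRNA samples, with the replicate number at each point and the mean ± SD (n = 3) beside it; each panel has its own scale, which does not start at 0. The CT16 siRNA arrays lie above all controls for DDIT4 and DDIT3 and below them for TRIB3 and HSPA5, while the groups overlap for ATF4 and HSP90B1.

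The transcription factors upstream of these genes, ATF4 and DDIT3, had positive differences whose size varied with the processing. The differences were 0.29 and 0.24 in the main values and 0.54 and 0.42 after neqc background correction. They were 0.48 and 0.46 with a median shift, which moved the median of all probes to 0.10. The unnormalized signals were 271 to 411.9 for ATF4 and 296.8 to 435.2 for DDIT3, beside array medians of 164.4 to 190.6. ATF4, the factor that gives the branch its name, was at 8.08, 8.31 and 8.36 in the controls and at 8.34, 8.60 and 8.70 in the CT16 siRNA arrays. The lowest CT16 siRNA array thus lay within the control range, and the difference of 0.29 (standard error 0.13) was not called (rank product FDR 0.279). DDIT3, which encodes the pro-apoptotic factor CHOP, was at 8.52, 8.40 and 8.23 in the controls and at 8.54, 8.56 and 8.78 in the CT16 siRNA arrays. The highest control array lay just under the lowest CT16 siRNA array, and the difference was 0.24 (standard error 0.12, FDR 0.454). ATF3, a factor induced by ATF4, was not well above background on any array. CEBPG, a partner of ATF4 in dimers, and CHAC1, which degrades glutathione, had differences of 0.15 (standard error 0.11) and 0.15 (standard error 0.16), with overlapping groups.
Members of the branch that encode enzymes were not called with all arrays. SHMT2, the mitochondrial serine hydroxymethyltransferase, was at 12.01, 12.21 and 12.01 in the controls and at 11.26, 11.75 and 11.95 in the CT16 siRNA arrays, a difference of -0.43 (standard error 0.18, FDR 0.225). PHGDH, the first enzyme of serine synthesis, was at 12.69, 12.74 and 12.69 with control siRNA. It was at 12.01 and 12.32 in CT16 siRNA replicates 1 and 2 but at 12.69 in replicate 3, so the groups overlapped (difference -0.37, standard error 0.17, FDR 0.359). Without CT16 siRNA replicate 1 the differences were -0.23 for SHMT2 (FDR 0.691) and -0.20 for PHGDH (FDR 0.758). Without CT16 siRNA replicate 3 they were -0.58 (FDR 0.0287) and -0.54 (FDR 0.0317), where 500 probes were called lower in all, against 120 with the full set. ASNS, the asparagine synthetase, was at 8.41, 8.19 and 8.25 in the controls and at 7.94, 8.09 and 8.12 in the CT16 siRNA arrays. Its groups did not overlap, at a difference of -0.23 (standard error 0.11, FDR 0.799). PSAT1, which follows PHGDH in serine synthesis, had a difference of -0.13 (standard error 0.10).
The other members of the branch overlapped between the groups. SESN2, a stress-induced inhibitor of mTORC1, had a difference of -0.24 (standard error 0.12), PPP1R15A, the inducible phosphatase subunit that restores eIF2, one of -0.04 (standard error 0.14), and VLDLR, a lipoprotein receptor, one of -0.04 (standard error 0.12). In all, 5 of the 13 measured genes of the ATF4 branch had positive and 8 negative differences, with a median of -0.04.

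HSPA5 encodes BiP, the main ER chaperone and the usual marker of the unfolded protein response. Its log2 signal was 8.64, 8.53 and 8.56 in the controls and 8.32, 8.41 and 8.29 in the CT16 siRNA arrays. The groups did not overlap after normalization. The unnormalized signals did, at 376.6, 327.7 and 377 in the controls and 371.7, 360.1 and 299.1 in the CT16 siRNA arrays. The median signal of the arrays was 164.4 to 190.6. The difference in the normalized HSPA5 values was -0.24 (standard error 0.09, n = 3 per group), or 1.18-fold lower. It was not called (rank product FDR 0.668, limma adjusted p = 0.50), and it ran from -0.28 to -0.21 over single arrays left out. It was -0.04 with a median shift of the arrays, which moved the median of all probes to 0.10, and -0.43 after neqc. HSP90B1, the ER form of HSP90 (GRP94), differed in the other direction. It was at 10.49, 10.28 and 10.96 in the controls and at 11.76, 11.16 and 10.54 in the CT16 siRNA arrays, so that CT16 siRNA replicate 3 lay within the control range. Its difference was 0.58 (standard error 0.31, FDR 0.107), and it was 0.27 (FDR 0.994) without CT16 siRNA replicate 1. Without control siRNA replicate 3 it was 0.77 and called (FDR 0.0253), with 168 probes called higher in all, against 98. The HSPA5 and HSP90B1 promoter windows both hold the letters of the ER stress element, as do those of CALR and CANX. A link between these letters and the differences was not tested.
P4HB, the protein disulfide isomerase, and DNAJB9, a co-chaperone of BiP, were higher with CT16 siRNA on every array. P4HB was at 10.91, 10.80 and 10.96 in the controls and at 11.52, 11.16 and 11.00 in the CT16 siRNA arrays (difference 0.34, standard error 0.14, FDR 0.494). DNAJB9 was at 8.03, 8.08 and 8.05 in the controls and at 8.71, 8.28 and 8.17 in the CT16 siRNA arrays (difference 0.33, standard error 0.15, FDR 0.528). In both genes CT16 siRNA replicate 1 was the highest array and replicate 3 the nearest to the controls. Without replicate 1 the differences were 0.19 for P4HB and 0.17 for DNAJB9.
CALR, the calcium-binding lectin chaperone calreticulin, and MANF, a secreted ER stress protein, were lower on every CT16 siRNA array. CALR was at 10.05, 10.09 and 10.10 in the controls and at 9.50, 9.93 and 10.02 in the CT16 siRNA arrays (difference -0.26, standard error 0.14, FDR 0.840), and the difference was -0.10 without CT16 siRNA replicate 1. MANF was at 12.41, 12.36 and 12.38 in the controls and at 12.32, 12.18 and 12.08 in the CT16 siRNA arrays (difference -0.19, standard error 0.10, FDR 0.854). Calreticulin works in a cycle with the lectin calnexin (CANX) and the oxidoreductase PDIA3, which had differences of 0.09 (standard error 0.34) and 0.12 (standard error 0.20) and overlapping groups.
PDIA6, another disulfide isomerase, was at 10.58, 10.11 and 10.43 in the controls and at 10.53, 10.24 and 9.54 in the CT16 siRNA arrays. Its difference of -0.27 (standard error 0.25, FDR 0.286) came from CT16 siRNA replicate 3, without which it was 0.02, while without CT16 siRNA replicate 1 it was -0.48 and called lower (FDR 0.0321). Among the other chaperones, the disulfide isomerase PDIA4 had a difference of -0.11, the BiP co-chaperone DNAJB11 0.06, SDF2L1, a partner of ER chaperone complexes, -0.22, and the nucleotide exchange factor HYOU1, measured on 3 arrays, -0.02, with overlapping groups in all 4. DNAJC3, an ER co-chaperone, was above background on 2 arrays only and was not tested. Of the 13 measured chaperones, 6 had positive and 7 negative differences, with a median of -0.02, and 0 were called by the rank product.

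Of the genes of ER-associated degradation, DERL1, a channel component for the export of misfolded protein, had the largest difference in size. It was at 9.15, 9.21 and 9.05 in the controls and at 8.50, 8.88 and 8.96 in the CT16 siRNA arrays, a difference of -0.36 (standard error 0.14, FDR 0.398) with no overlap. It was -0.22 without CT16 siRNA replicate 1 and -0.15 with a median shift. Its paralog DERL2 had a difference of 0.23 (standard error 0.12) with overlapping groups. HERPUD1, a scaffold of the degradation complex and a sensitive target of the unfolded protein response, was at 8.12, 8.28 and 8.23 in the controls and at 8.04, 8.18 and 8.32 in the CT16 siRNA arrays. Its difference of -0.03 (standard error 0.11) was within the spread of both groups, and its 95% interval ran from -0.29 to 0.22. Its sign was positive with a median shift of the arrays and without CT16 siRNA replicate 1 or control siRNA replicate 2. EDEM1, which directs misfolded glycoproteins to degradation, had a difference of 0.16 (standard error 0.25), and the ubiquitin ligase SYVN1 and its partner SEL1L, measured on 3 arrays, had differences of 0.07 (standard error 0.11) and 0.03 (standard error 0.10).
Of the sensors and regulators, ATF6 was at 9.48, 9.37 and 9.35 in the controls and at 9.28, 9.27 and 9.07 in the CT16 siRNA arrays, a difference of -0.19 (standard error 0.10, FDR 0.879) with no overlap, which was -0.0073 with a median shift. XBP1 was at 9.77, 9.86 and 9.72 in the controls and at 9.25, 9.64 and 9.81 in the CT16 siRNA arrays. The difference of -0.22 (standard error 0.15) was -0.06 without CT16 siRNA replicate 1, and the groups overlapped. PPP1R15B, the constitutive phosphatase subunit for eIF2, had a difference of 0.06 (standard error 0.11). The kinases EIF2AK3 and ERN1 were above background on 2 arrays each, and CREB3L2, an ER-bound transcription factor related to ATF6, on none, so that no value is given for them.

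**Figure D3:**
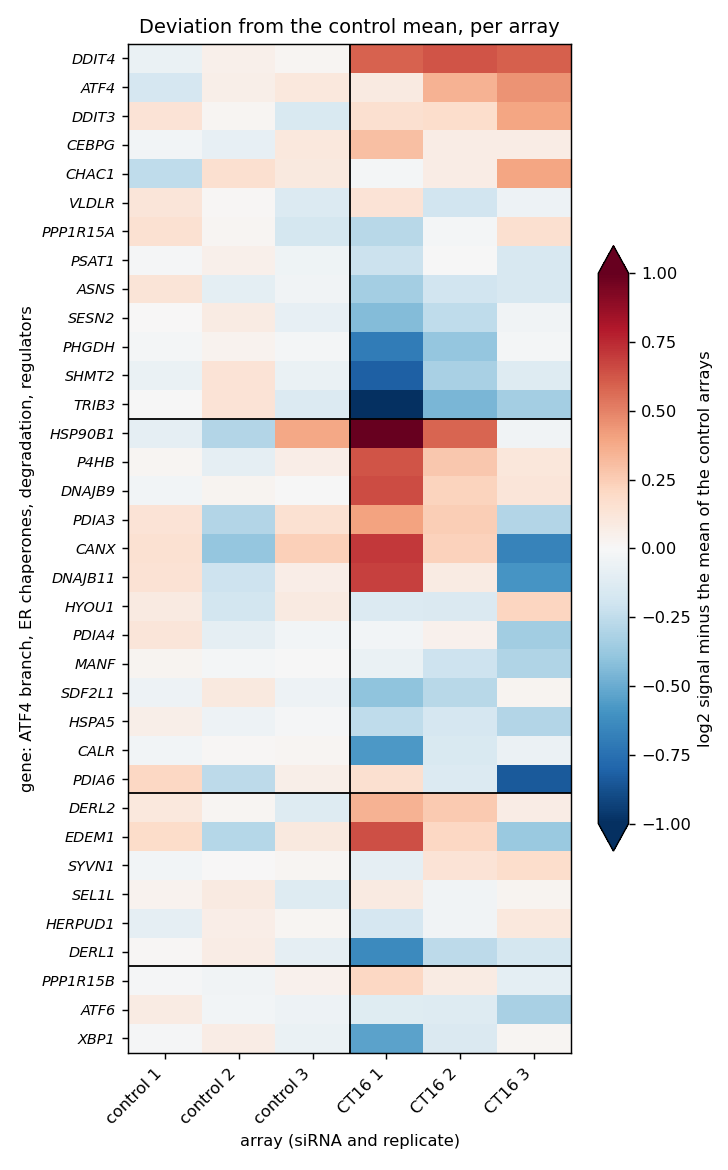
Log2 signal of each measured gene on each array minus the mean of the 3 control arrays, with the color scale ended at -1 and 1; rows are genes ordered by log2 difference within the ATF4 branch, ER chaperones, degradation genes and regulators. DDIT4 is raised alike on the 3 CT16 siRNA arrays, while many of the other strong colors are in the CT16 siRNA replicate 1 column, with HSP90B1 above the scale and TRIB3 below it.

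The differences within the CT16 siRNA group were often as large as those between the groups. CANX was at 12.34, 11.86 and 10.96 in CT16 siRNA replicates 1, 2 and 3, against 11.78, 11.24 and 11.87 in the controls. Its SD over the CT16 siRNA arrays was 0.70. DNAJB11, PDIA3 and EDEM1 were also highest in CT16 siRNA replicate 1 and lowest in replicate 3. Among the 13 chaperones, CT16 siRNA replicate 1 was the highest array in 6 and CT16 siRNA replicate 3 the lowest in 7. Over all probes above background these arrays were the highest in 29.2% and the lowest in 17.9%. In the ATF4 branch, CT16 siRNA replicate 1 was the lowest array in 7 of 13 genes, beside 34.1% of all probes. The median within-group SD was 0.20 for the chaperones, 0.15 for the ATF4 branch and 0.16 over all probes. CT16 siRNA replicate 1 is the array that stood apart on the first principal component, and the part of that component in these values was not tested.

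The ATF4 branch and the ER chaperones were compared as means over their 13 measured genes each. Relative to the mean of the controls, the ATF4 branch was at -0.0044, 0.04 and -0.04 in control siRNA replicates 1, 2 and 3 and at -0.21, -0.04 and 0.09 in CT16 siRNA replicates 1, 2 and 3. The chaperones were at 0.06, -0.13 and 0.07 in the controls and at 0.23, 0.05 and -0.23 with CT16 siRNA. The CT16 siRNA arrays thus lay on both sides of 0 for both branches. The branches were on opposite sides of 0 on each of the 6 arrays, controls included, though some of these values were close to 0. The control values are deviations from their own mean, so they fall on both sides of 0 in any case. The mean shift with CT16 siRNA was -0.05 for the ATF4 branch and 0.02 for the chaperones. The difference between these shifts was -0.07, smaller than the pooled SD over arrays of the gap between the branches (0.29). It ran from -0.26 to 0.11 when single arrays were left out, so it had no settled sign. As the members were chosen with earlier results known, this comparison is given with no test.

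**Figure D4:**
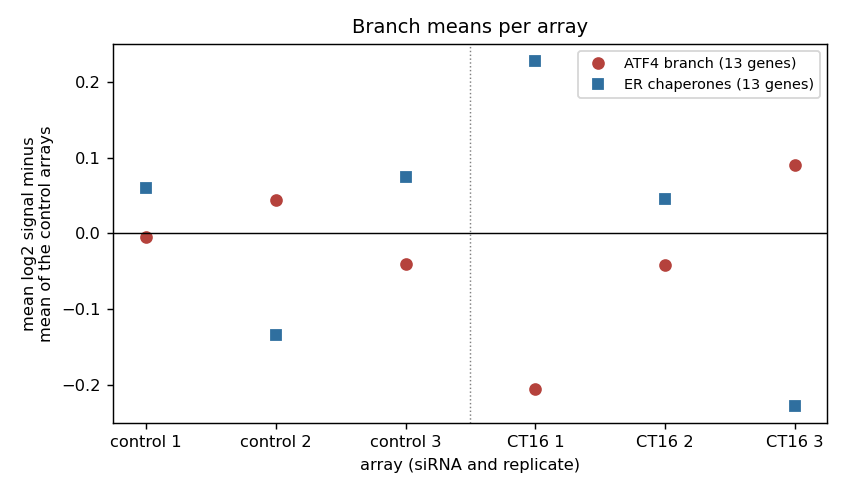
Mean log2 signal of the 13 ATF4 branch genes (circles) and the 13 ER chaperones (squares) on each array, minus the mean of the same genes over the 3 control arrays. The CT16 siRNA arrays run from -0.21 to 0.09 for the ATF4 branch and from -0.23 to 0.23 for the chaperones, so both span the controls.

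Further genes of the pathways were taken from lists of known members. Of 38 other ATF4 targets, 34 were measured. At a rank product FDR under 0.05, 1 rose and 0 fell, beside 0.811% and 0.993% of the probes above background. The median difference was -0.10 (0.04 with a median shift, which moved that of all probes to 0.10), with 11 positive and 23 negative differences (49.9% of all probes above background had a negative one). The groups did not overlap in 1 higher and 9 lower genes, beside 7.39% and 8.95% of all probes. SLC38A2, the neutral amino acid transporter SNAT2, rose by the rank product (difference 0.97, standard error 0.38, FDR 0.00455). Its values were 9.54, 8.91 and 9.47 in the controls and 11.11, 10.24 and 9.49 in the CT16 siRNA arrays, so that CT16 siRNA replicate 3 was within the control range. The FDR of SLC38A2 was 0.299 without CT16 siRNA replicate 1 (difference 0.56), 0.398 without CT16 siRNA replicate 2 and 0.0625 after neqc background correction. SLC7A11, the cystine transporter xCT, was at 11.94, 12.00 and 12.04 in the controls and at 13.29, 12.66 and 12.04 in the CT16 siRNA arrays (difference 0.67, standard error 0.28, FDR 0.0544), the groups meeting at their edges. SLC1A4, a transporter of alanine and serine, was at 9.27, 9.48 and 9.37 in the controls and at 8.62, 8.86 and 9.15 in the CT16 siRNA arrays (difference -0.50, standard error 0.15, FDR 0.0728). GDF15, a secreted stress cytokine, had a difference of -0.39 (standard error 0.15, FDR 0.179). The other 7 non-overlapping lower genes were SLC3A2, CTH, ALDH18A1 and the aminoacyl-tRNA synthetases AARS1, SARS1, WARS1 and CARS1. The 12 synthetases of the list, a group looked at after the values were seen, had 7 negative and 5 positive differences.
Of 49 genes of protein translocation into the ER, folding and secretion, 43 were measured and 0 were called by the rank product in either direction. The median was -0.01 (0.14 with a median shift), with 2 higher and 9 lower genes without overlap, beside 7.39% and 8.95% of all probes. They included SEC61A1, the pore of the translocation channel (-0.42, standard error 0.12), SIL1, an exchange factor of BiP (-0.35, standard error 0.13), MCFD2, a cargo receptor subunit (0.38, standard error 0.14), and SEC11C, a signal peptidase subunit (0.20, standard error 0.10). Of 21 other genes of ER-associated degradation, 20 were measured and 0 were called, with a median of -0.02 (0.11 with a median shift). NPLOC4, a cofactor of the extraction motor p97, was the single gene without overlap (-0.49, standard error 0.11, FDR 0.0719).
Of 18 genes of eIF2 and its kinases, 15 were measured, with a median of 0.13 and overlapping groups in all 15. By the rank product 1 rose and 0 fell, beside 0.811% and 0.993% of the probes above background. The median was 0.03 without CT16 siRNA replicate 1 and 0.28 with a median shift. EIF2S2, the beta subunit of eIF2, was at 10.95, 10.59 and 11.12 in the controls and at 12.48, 11.62 and 10.94 in the CT16 siRNA arrays (difference 0.80, standard error 0.36, FDR 0.0166). The call was lost with neqc background correction (FDR 0.285), with the strict filter on detection (0.104) and with the ranking of probes above background alone (0.0641). Of the arrays left out, it was lost with CT16 siRNA replicate 1 (0.711, difference 0.39), CT16 siRNA replicate 2 (0.773) and control siRNA replicate 2 (0.0572). Like SLC38A2 and SLC7A11, it was highest in CT16 siRNA replicate 1 and within or at the edge of the control range in replicate 3. Of 10 partners of ATF6 and XBP1, 8 were measured and 0 called, with a median of 0.05. It moved to -0.02 when either replicate 1 or replicate 2 of CT16 siRNA was left out, and to 0.16 with a median shift. NFYB, a subunit of NF-Y, had a difference of 0.35 (standard error 0.12) and RTCB, the ligase that joins the XBP1 exons, one of -0.31 (standard error 0.15), both without overlap.

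**Figure D5:**
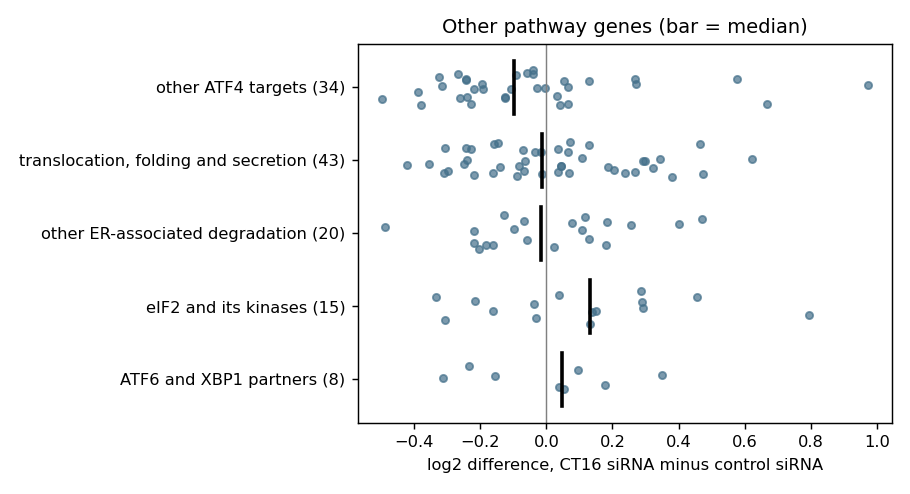
Log2 difference (CT16 siRNA minus control siRNA) of each measured gene in 5 lists of other pathway genes, with the number measured in brackets and a bar at the median. The medians lie between -0.10 and 0.13, and each list has genes on both sides of 0.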

How the data were processed

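The report covers 6 arrays of A2058 cells, 3 cultures per siRNA, grouped by their labels. For each probe the authors deposited an unnormalized intensity on a linear scale, averaged over beads, and a detection p-value, and also intensity values normalized by quantiles in Bioconductor. The 2 tables ranked probes alike but for 480 unnamed probes. The bead summary software is not given in the sources used, nor is the genome build.
Of 47296 probes, 7 were empty. Symbols came from the platform annotation (18468 named probes) and were updated through RefSeq. The unnormalized signals were log2-transformed, quantile-normalized and tested with limma 3.58.1 in R 4.3.3 (lmFit, eBayes, Benjamini-Hochberg over 12082 probes), the source of every adjusted p, standard error and interval. The rank product was written anew (100 permutations within arrays, fixed seed, each direction by itself). Scripts were tested on simulated data. An FDR is that in the direction of the difference.
The members and lists were chosen with earlier results of these data known. Named in full were ATF4, DDIT3, XBP1, ATF6, HSPA5 and HERPUD1, members with a rank product FDR under 0.1, the 5 highest and 5 lowest differences, and members without overlap. In the other lists they were the 2 largest rises and falls without overlap and genes with an FDR under 0.05.
The alternatives changed the normalization (neqc with offset 16, a shift to a common median, the deposited values), the filter (none, or a detection p-value under 0.01 on 6 arrays, which left 8046 probes), the moderation (trend and robust), the ranked probes (above background) and the seed, added the replicate number as a block, and left out each array. An array was left out only after the quantile normalization and the detection filter, which still used all 6 arrays. Plots used matplotlib 3.10.9 with Python 3.11.15.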

Additional observations from a re-analysis of the deposited data

How the results depend on the processing

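The count of members passing by limma was 0 under each alternative, apart from 1 (DDIT4) without CT16 siRNA replicate 3 (range 0 to 1 over single arrays left out). The rank product count of higher members, 1 with all arrays, was 0 after neqc, with only probes above background ranked and with the strict filter, and 0 to 2 over single arrays left out. The count of lower members, 1 with all arrays, was 0 under the same 3 settings and with a median shift, and 0 to 3 over single arrays left out. Over all probes the rank product called 98 higher and 120 lower, against 56 and 12 after neqc, 108 and 41 with a median shift, 16 and 32 with the strict filter, 26 and 47 with only probes above background ranked, and 52 and 107 with the replicate block. The cause of these losses was not tested, although the strict filter and the ranking of probes above background leave fewer probes.
The median shift moved the median of all probes above background to 0.10, and HERPUD1, at -0.03 in the main values, was then at 0.14. HERPUD1 was at 0.037 without CT16 siRNA replicate 1 and at 0.0018 without control siRNA replicate 2, and PDIA6, at -0.27 in the main values, was at 0.016 without CT16 siRNA replicate 3 and at -0.48 without CT16 siRNA replicate 1. The other 16 named members kept their sign in the alternatives run, but not their size. With the median shift, ATF6 was at -0.0073, XBP1 at -0.025, HSPA5 at -0.036, ASNS at -0.055, MANF at -0.079, CALR at -0.08 and DERL1 at -0.15, while DDIT3 was at 0.46, ATF4 at 0.48 and DNAJB9 at 0.51. After neqc, ATF4 was at 0.54, DNAJB9 at 0.66, DDIT3 at 0.42, ASNS at -0.49 and HSPA5 at -0.43. With the median shift the median of the other ATF4 targets was 0.04, against -0.10, and thus below that of all probes in both.
Deviations from the group means were not alike in all arrays with the same replicate number (r = 0.42, 0.02 and -0.41 for numbers 1, 2 and 3). The largest r was 0.68, for control siRNA replicate 2 and CT16 siRNA replicate 3. With 3 arrays per group these values cannot tell whether the numbers pair the samples. With the replicate block, DDIT4 (FDR 0.0486) and TRIB3 (FDR 0.010) were still called and the branch difference was -0.07. No second measured probe existed for any member, so the choice of probe gave no other value. The rank product ranks all probes already, so the setting without a filter gave no other rank product value. In that setting the limma adjusted p of DDIT4 was 0.0742, and the branch difference was -0.06 over 14 genes in each branch.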
